A study of Nothobranchius furzeri with 20 samples.

Results

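The 150 genes described here are those whose share of the reads varied least among 20 muscle libraries of Nothobranchius furzeri, the turquoise killifish, whose brief life makes it a model of vertebrate ageing. They were chosen by measured values. Each count was divided by the total of its own library and multiplied by 1000000, and the result is written CPM. Among the 3188 of 26739 genes with a mean of at least 20 CPM over all libraries, the 150 with the lowest coefficient of variation (CV, the SD divided by the mean) were taken. Their low CV over these libraries is therefore the criterion of choice and not a result.

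All fish were males of the strain MZM-04/10p. Unexercised fish of 9 weeks (perturbation "none") gave 5 libraries, fish of 9 weeks exercised in a swim tunnel gave 5 and fish of 27 weeks exercised in a swim tunnel gave 10. The labels do not say how long or how hard the fish swam, so the exercise of young and old fish may have differed, and unexercised fish of 27 weeks were not analysed here. Nothing in the labels says whether libraries of a group came from separate animals, so p-values measure the spread between these samples, which may be technical. Libraries are numbered within each group in the order of their sample codes. They held between 24333849 and 38571967 counts. Under identical labels, 27-week libraries 1 to 5 stood apart from libraries 6 to 10. The main results that rest on the 27-week group are therefore also given for each of these sets of 5 samples, which are not groups of the study.

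Reference genes are transcripts whose level is taken as constant, so that other transcripts can be expressed relative to them. The usual candidates serve functions that every cell needs, such as protein synthesis, the cytoskeleton and energy metabolism, and their constancy has to be checked again in each tissue and condition. Skeletal muscle puts much of its messenger RNA into a few contractile and metabolic transcripts, and because CPM values of a library have a fixed sum, a shift in those transcripts moves the CPM of all others. The deposited identifiers could not be tied to gene names: 0 of 26739 were found in the reference table of 38438 genes of assembly NfurGRZ-RIMD1. No gene is therefore named, no function is given, and neither the usual reference genes nor muscle markers could be looked up, so the tissue label was not checked.

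The 150 genes had CVs from 5.35% to 13.9% with a median of 12.5%, where the median of all 3188 genes was 30.3%. The highest library exceeded the lowest by a median factor of 1.60 (range 1.19 to 2.03), against 2.85 for all 3188 genes. The spread that counting alone would give had a median of 2.12% of the mean for the 150 genes, so most of their residual spread lay above counting error. The threshold fell in a dense part of the distribution. The last gene inside, Nfu_g_1_012177, had a CV of 13.8653% and the first outside, Nfu_g_1_019350, had 13.8659%.

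The 150 genes spanned the whole range of abundance above the minimum, from 20.5 to 117108 CPM. Their median was 72.2 CPM against 41.6 CPM for all 3188 genes, and per kilobase of gene length it was 45.3 against 14.1 CPM. Together they held 25.6% ± 1.58 (SD, n = 20 libraries) of all counts. By group this share was 24.6% ± 1.72 (SD, n = 5) in unexercised 9-week fish, 25.4% ± 1.12 (SD, n = 5) in their exercised counterparts, and 26.1% ± 1.57 (SD, n = 10) in 27-week fish. The groups overlapped, with library values from 21.9% to 28.5%. The most abundant gene alone held 10.8% ± 1.51 (SD, n = 5), 11.9% ± 1.13 (SD, n = 5) and 12.1% ± 1.08 (SD, n = 10) of all counts in the same order. Between the 9-week groups its mean rose by more than that of the whole set, so that rise lay in this gene. Unexercised library 4 had the lowest shares of all 20 libraries, 21.9% for the set and 8.33% for this gene, and lowered both unexercised means. Within the 27-week group the share was 25.2% ± 1.09 (SD, n = 5) in libraries 1 to 5, below the exercised 9-week mean, and 27.1% ± 1.41 (SD, n = 5) in libraries 6 to 10, so the higher mean at 27 weeks rested on the latter.

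**Figure D1:**
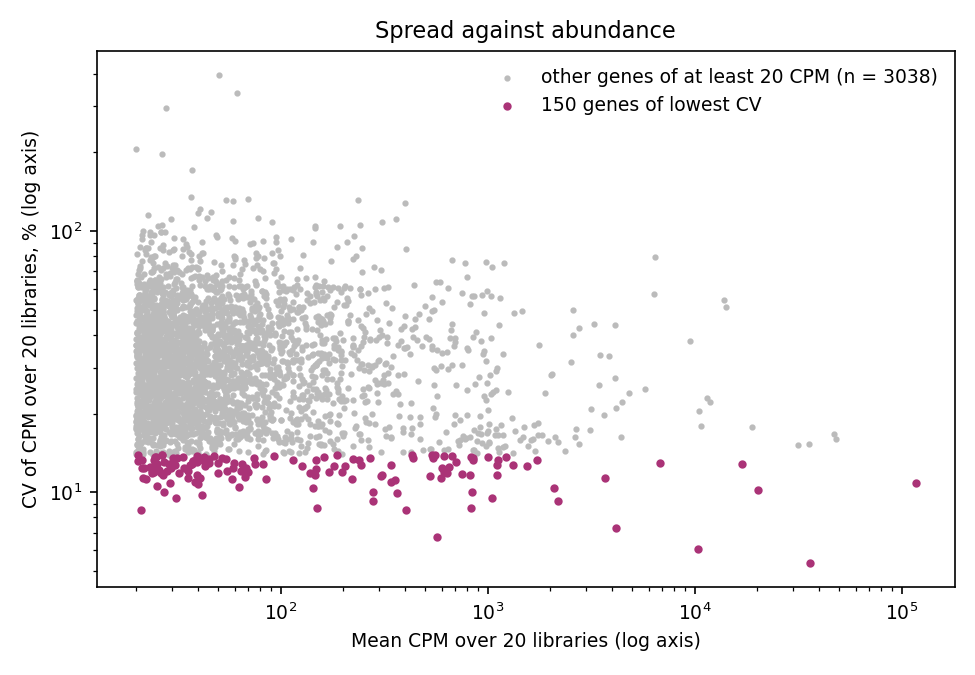
Each point is a gene, placed by its mean CPM (x axis, log scale) and by the CV of its CPM over 20 libraries in percent (y axis, log scale). The 150 genes of lowest CV form the lower edge at every abundance, from 20.5 CPM to the most abundant gene at 117108 CPM.

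The chosen share of each abundance class was highest among abundant genes. Of the 214 genes with a mean of at least 500 CPM, 40 were chosen (18.7%), compared with 47 of 1141 genes between 50 and 500 CPM (4.12%) and 63 of 1833 genes under 50 CPM (3.44%). The median CV of all genes in these classes was 19.1%, 31.6% and 30.3%. The 40 most abundant of the 150 held 24.5% of all counts, while the 47 in the middle class held 0.842% and the 63 least abundant 0.205%. Near-identical copies and overlapping genes could not be separated in these counts.

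Gene length, which the choice did not use, differed between the classes. The 40 genes of at least 500 CPM had a median length of 922.5 bases against 2165 for all genes of that class, and 21 of them (52.5%) were shorter than 1000 bases against 28.0% of the class. The 47 genes of the middle class had a median of 1434 bases against 3353. The order was turned in the lowest class, where the 63 genes had a median of 5560 bases against 3912 for all its genes. These differences describe a chosen list and carry no test.

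Nfu_g_1_003723 (1662 bases) had the lowest CV of all, 5.35%, at a mean of 36087 CPM or 21713 CPM per kilobase. In unexercised fish of 9 weeks it lay at 37825, 36282, 37585, 34842 and 36072 CPM, and in exercised fish of 9 weeks at 32900.5, 33705, 33724, 37171 and 33438 CPM. In the 27-week libraries the lowest value was 33096, the median 36994.5 and the highest 39150.1 CPM. Of the exercised 9-week libraries, 4 lay below every unexercised one, and the 27-week libraries overlapped both 9-week groups. The group means were 36521 ± 1215 (SD, n = 5), 34188 ± 1700.5 (SD, n = 5) and 36820.1 ± 1795 CPM (SD, n = 10). The exercised 9-week mean differed from the unexercised one by -0.10 on the log2 scale of CPM, which is given as a description since the gene was chosen for its low spread over these libraries. The 27-week mean was 35981 ± 2069 (SD, n = 5) in libraries 1 to 5 and 37659 ± 1101 CPM (SD, n = 5) in libraries 6 to 10.

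Nfu_g_1_009525 (4102 bases, CV 6.03%) followed at 2540.2 CPM per kilobase. Its values were 10668, 10974, 10324, 10326 and 9827 CPM in unexercised fish of 9 weeks. In exercised fish of 9 weeks they were 9917, 10453, 10423, 9439 and 10255 CPM. At 27 weeks they ran from 9560 over a median of 10487 to 12138.5 CPM, with the highest value in library 8. The 3 groups overlapped, and their means of 10424 ± 429.6 (SD, n = 5), 10097 ± 425.0 (SD, n = 5) and 10579 ± 765 CPM (SD, n = 10) differed by less than the spread at 27 weeks.

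Nfu_g_1_000200 (3570 bases, CV 6.73%) combined a low spread with a moderate level of 158.8 CPM per kilobase. Unexercised libraries held 552, 578, 567, 605 and 525 CPM and exercised libraries of 9 weeks 591, 516, 603, 537 and 637 CPM. The 27-week libraries ran from 514 over a median of 560.2 to 632 CPM. No group stood apart, and the group means were 565 ± 29.8 (SD, n = 5), 577 ± 49.4 (SD, n = 5) and 563 ± 39.01 CPM (SD, n = 10).

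Nfu_g_1_002091 (1813 bases) had the highest CPM of the table and alone held 11.7% ± 1.27 (SD, n = 20) of all counts. Per kilobase its level of 64593 CPM was exceeded outside the 150, where the highest value was 92030.4 CPM. Its CV of 10.8% put it at rank 25 of the 150. Unexercised libraries lay at 124771, 109500, 109686, 83308 and 111450 CPM, exercised 9-week libraries at 120047, 130286, 128348, 104434 and 110102 CPM, and 27-week libraries between 106112 and 136515 CPM with a median of 118705. Unexercised library 4 was the lowest of all 20 and the remaining values of the groups overlapped. The group means were 107743 ± 15063 (SD, n = 5), 118644 ± 11253 (SD, n = 5) and 121023 ± 10796 CPM (SD, n = 10).

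**Figure D2:**
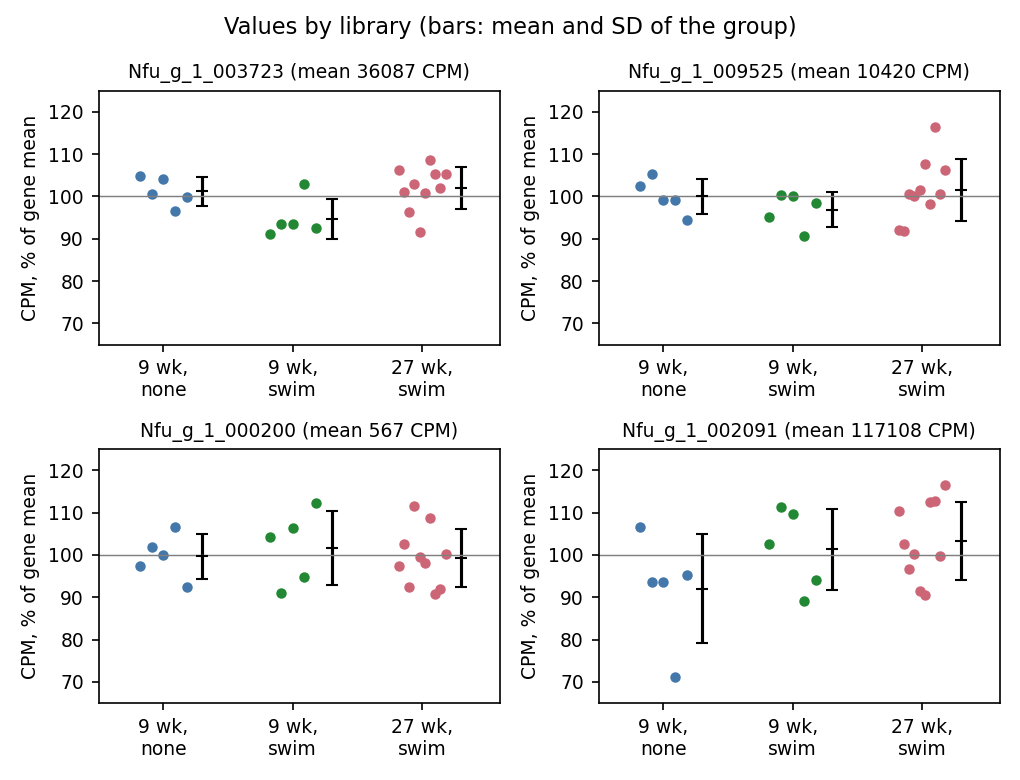
CPM of the 3 genes of lowest CV and of the most abundant gene, as percent of the gene's mean over 20 libraries (y axis), in unexercised and exercised fish of 9 weeks and exercised fish of 27 weeks (x axis). Points are libraries, and the black bars give the group mean and SD; the groups overlap in each panel, and unexercised library 4 is the lowest point of the most abundant gene.

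Between the groups the 150 genes moved little, by their choice. On the scale of CPM with own totals, the log2 difference between exercised and unexercised fish of 9 weeks had a median of -0.04 and ran from -0.31 to 0.33, and 130 of the 150 genes stayed within 0.2 in either direction. Between 27 and 9 weeks with exercise the median was -0.02 (range -0.30 to 0.32) and 82.7% of the genes stayed within 0.2. Between 27-week and unexercised 9-week fish it was -0.04 (range -0.32 to 0.25) and 135 stayed within 0.2. Of all 3188 genes, 1588, 843 and 767 did so in the same order. In these bulk libraries, fewer cells of a type and less RNA per cell cannot be told apart.

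The residual drift was not spread evenly over the abundance classes. In exercised against unexercised fish of 9 weeks, the genes of at least 500 CPM had a median log2 difference of -0.15 and 30 of 40 lay lower, while the class under 50 CPM had a median of -0.0045 with 33 of 63 lower. All 214 genes of the highest class had a median of -0.17. Per library, the median deviation of the 40 genes from their means averaged 0.04 ± 0.06 (SD, n = 5) without and -0.10 ± 0.13 (SD, n = 5) with exercise, and the libraries of the 2 groups overlapped.

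The comparison of 27 with 9 weeks under exercise showed the opposite order of the classes. Of the 40 most abundant genes 32 were higher at 27 weeks, with a median log2 difference of 0.13, and of the 63 least abundant 46 were lower, with a median of -0.07. Both comparisons share the exercised 9-week libraries. Against unexercised 9-week fish the most abundant class had a median of 0.0046 with 20 genes on each side, and the least abundant had -0.09 with 50 of 63 lower. Against all 9-week libraries and with own totals, the medians of the most and the least abundant class were -0.07 and 0.01 in 27-week libraries 1 to 5. In libraries 6 to 10 they were 0.16 and -0.18.

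The genes with the largest difference between 27 weeks and the mean of both 9-week groups differed by at most 0.27 on the log2 scale of CPM. Nfu_g_1_012177 (621 bases) was higher at 27 weeks by 0.22 on the log2 scale of CPM, with 426 ± 42.3 CPM (SD, n = 5) in unexercised 9-week fish, 371 ± 23.9 CPM (SD, n = 5) in their exercised counterparts and 463 ± 57.3 CPM (SD, n = 10) in 27-week fish. Nfu_g_1_005860 (2056 bases) was higher by 0.20, with 23.3 ± 3.22 (SD, n = 5), 22.6 ± 1.70 (SD, n = 5) and 26.3 ± 2.97 CPM (SD, n = 10). In the other direction, Nfu_g_1_015717 (882 bases) had a difference of -0.27, with 29.0 ± 2.36 (SD, n = 5), 29.5 ± 5.10 (SD, n = 5) and 24.3 ± 1.14 CPM (SD, n = 10). Nfu_g_1_004130 (9559 bases) had a difference of -0.26, with 26.9 ± 1.21 (SD, n = 5), 27.0 ± 4.06 (SD, n = 5) and 22.5 ± 2.20 CPM (SD, n = 10). Taken over 27-week libraries 1 to 5 and 6 to 10 in turn, the difference from 9 weeks was 0.19 and 0.25 for Nfu_g_1_012177, 0.08 and 0.31 for Nfu_g_1_005860, -0.27 and -0.26 for Nfu_g_1_015717 and -0.23 and -0.30 for Nfu_g_1_004130. With own totals the signs were the same in both sets, and the difference of Nfu_g_1_005860 lay mostly in libraries 6 to 10. Equal signs are favoured by the choice of these genes for large differences over the same libraries. Under TMM scaling, whose factors edgeR derives from the bulk of genes, the medians of all 150 genes against 9 weeks moved. They went from -0.03 to -0.27 in libraries 1 to 5 and from -0.04 to 0.15 in libraries 6 to 10. The signs of the 4 genes are therefore given for own totals only. The 27-week libraries overlapped those of 9 weeks for each of these 4 genes, and none of the 4 passed the test in a comparison of groups.

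In the fit across all 16653 genes tested (edgeR quasi-likelihood test on TMM-scaled counts, Benjamini-Hochberg adjustment over all of them), 0 of the 150 genes passed an adjusted p of 0.05 for exercise at 9 weeks, and 4 had an unadjusted p under 0.05. Of all genes tested 0.18% passed, and of the 3188 genes of at least 20 CPM 0.22%. DESeq2 called 1 of the 150 and 2.14% of all genes tested. For 27 against 9 weeks with exercise 4 of the 150 passed, all lower, beside 31.7% of all genes tested and 43.3% of the 3188. For 27 weeks against unexercised 9-week fish 2 passed, both lower, beside 40.1% and 52.3%. The single direction depended on the scaling. With own totals, as in the choice of the genes, age under exercise gave 6 higher and 5 lower, and with scaling by the 150 genes 9 higher and 5 lower, beside 28.3% and 29.9% of all genes tested. Against unexercised fish own totals gave 4 lower, and scaling by the 150 gave 3 higher and 2 lower, beside 36.3% and 38.2%. Since the rule chose the 150 on the same libraries, these counts describe the list and nothing more is read from them. They also rest on single libraries. The count of 4 dropped to 0 without exercised 9-week library 3 or 5 or unexercised library 2, to 1 without exercised 9-week library 2, unexercised library 5 or 27-week library 1, 2, 3, 4, 5 or 8, and to 2 without exercised 9-week library 4 or unexercised library 1 or 3. The count of 2 dropped to 0 without unexercised library 2, 3 or 5 or 27-week library 4, turned to 1 higher and 0 lower without 27-week library 8 and to 1 higher and 1 lower without library 1 or 2, and came to 4 without library 7 or 10 and to 6 without library 9 of that age. It came to 3, all lower, without exercised 9-week library 1 or unexercised library 4.

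Of the 4 genes called lower at 27 than at 9 weeks with exercise, 2 are given, chosen after their values were seen. The rule chose both on these same libraries, so their adjusted p describes the list and nothing more is read from it. Both calls were lost without exercised 9-week library 3 or 5 or unexercised library 2. With TMM scaling and without 27-week libraries 1 to 5, 0 of the 150 genes were called lower, so neither of these was. They were also lost without a low-count filter and with only the 2 groups compared in the fit. Nfu_g_1_003984 (16030 bases, rank 34) held 42.8, 38.1, 37.97, 38.3 and 41.5 CPM in exercised fish of 9 weeks. At 27 weeks libraries 1 to 5 held 36.4, 35.4, 34.5, 38.1 and 35.6 CPM, and libraries 6 to 10 held 32.1, 33.5, 27.9, 29.1 and 28.4 CPM. With own totals, the 27-week libraries overlapped the exercised 9-week range only through library 4, and libraries 6 to 10 were the lowest of all. This order does not carry over to the TMM scale of the fit. There, factors of 1.11 to 1.24 lower the values of libraries 1 to 5, and factors of 0.777 to 0.983 raise those of libraries 6 to 10. The log2 fold change on TMM-scaled counts was -0.30 (SE 0.10, adjusted p = 0.0253, edgeR quasi-likelihood test). With own totals, unexercised fish of 9 weeks lay between the compared groups at 37.2 ± 1.91 CPM (SD, n = 5). With own totals, Nfu_g_1_015912 (1267 bases, rank 67) held 167 ± 12.9 CPM (SD, n = 5) in exercised fish of 9 weeks. Pooled over all 27-week libraries it held 137.2 ± 13.8 CPM (SD, n = 10), and unexercised fish of 9 weeks held 151 ± 15.7 CPM (SD, n = 5). Its log2 fold change on TMM-scaled counts was -0.31 (SE 0.11, adjusted p = 0.0419, edgeR quasi-likelihood test).

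The largest residual pattern lay inside the 27-week group. Over libraries 1 to 5 relative to 6 to 10, the median log2 difference of the 150 genes in CPM was -0.04, but the classes moved apart. Of the 40 most abundant genes 39 were lower in libraries 1 to 5, with a median of -0.26. The middle class had a median of -0.08 with 29 of 47 lower. Of the 63 least abundant genes 48 were higher, with a median of 0.20. All genes of the same classes had medians of -0.29, -0.01 and 0.27, so the order was not particular to the 150.

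Library by library, the median deviation of the most abundant class minus that of the least abundant lay between -0.30 and -0.02 in 27-week libraries 1 to 5, at -0.16 ± 0.13 (SD, n = 5). In libraries 6 to 10 it lay between 0.24 and 0.36, at 0.29 ± 0.05 (SD, n = 5), with no overlap. Unexercised libraries of 9 weeks ranged from -0.17 to 0.12 and exercised ones from -0.23 to -0.01, so libraries 1 to 5 overlapped the 9-week values and libraries 6 to 10 above all other libraries. Relative to the 9-week libraries and with own totals, 35 of the 40 most abundant genes were higher (median 0.16) in libraries 6 to 10. There, 57 of the 63 least abundant were lower (median -0.18). In libraries 1 to 5 the same medians were -0.07 and 0.01. With TMM scaling, all 40 most abundant genes were higher in libraries 6 to 10 (median 0.35), and 29 of the 63 least abundant were lower (median 0.006). In libraries 1 to 5 the TMM medians were -0.30 and -0.23, so these directions depended on the scaling.

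**Figure D3:**
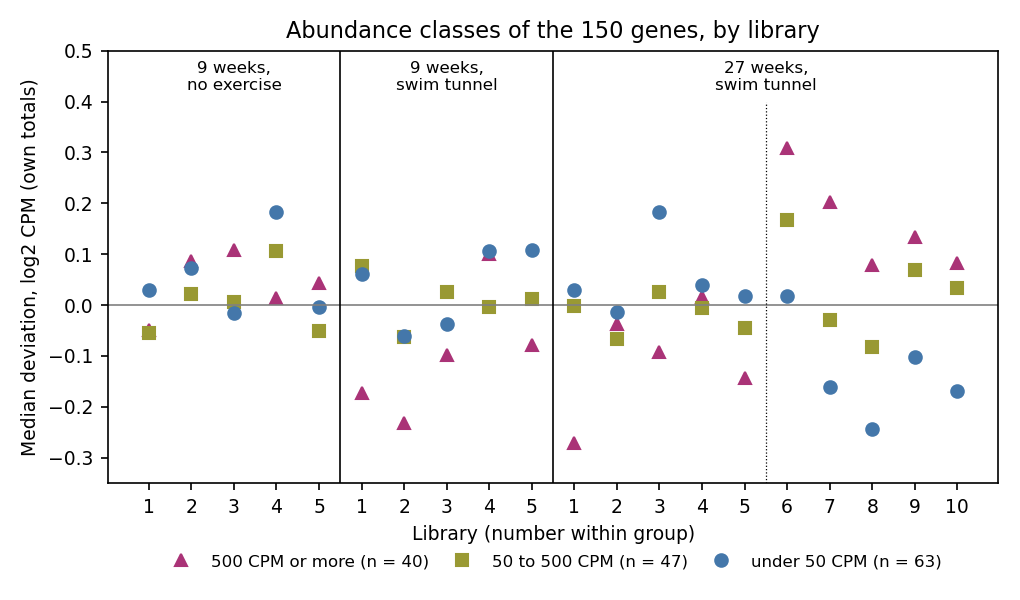
Median deviation of log2 CPM from each gene's own mean (y axis) for the 3 abundance classes of the 150 genes in every library (x axis, grouped by age and exercise). The dotted line separates 27-week libraries 1 to 5 from 6 to 10; in libraries 6 to 10 the class of 500 CPM or more lies above 0 in each, and the class under 50 CPM lies below 0 except in library 6, where it is at 0.02.

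Length moved with the same division. Of the 38 genes shorter than 1000 bases 33 were lower in 27-week libraries 1 to 5 than in 6 to 10 (median log2 difference -0.22), and of the 47 genes of at least 5000 bases 36 were higher (median 0.16). Among all genes of at least 20 CPM, 208 of 377 shorter than 1000 bases were lower (median -0.06). Of those of at least 5000 bases, 713 of 1101 were higher (median 0.23). Within the most abundant class, the 21 genes under 1000 bases had a median of -0.27, the 15 of 1000 to 5000 bases -0.11 and the 4 of at least 5000 bases -0.25. In the middle class the 13, 24 and 10 genes of these lengths had medians of -0.11, -0.13 and 0.12. Within the least abundant class, the 4 shortest had -0.02, the 26 genes of 1000 to 5000 bases had 0.20 and the 33 of at least 5000 bases 0.22. In the most abundant class the medians thus did not follow the order of length. Abundance and length are linked among these genes, and their separate parts in the drift were not tested.

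**Figure D4:**
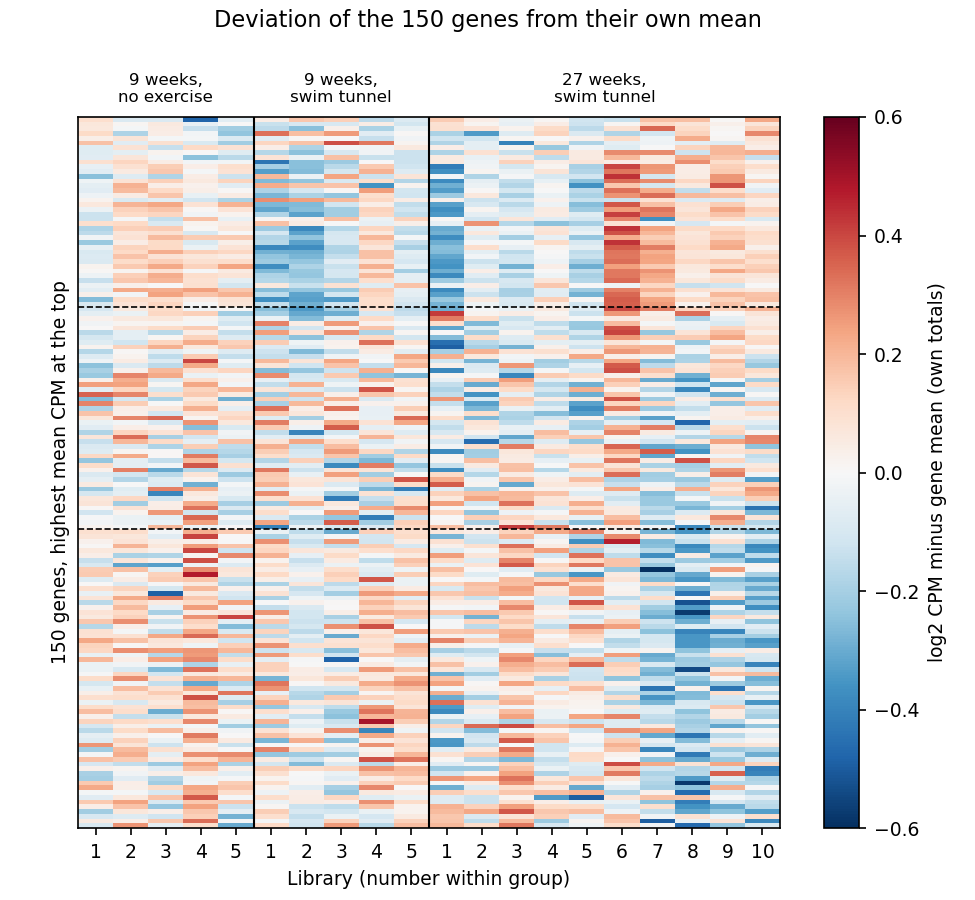
Each row is 1 of the 150 genes, ordered by mean CPM with the highest at the top, and each column a library; colour gives log2 CPM minus the gene's mean and saturates at the ends of the scale. Dashed lines mark 500 and 50 CPM; the upper block turns red in 27-week libraries 6 to 10 and the lower block blue in 7 to 10.

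How constant the 150 genes appeared depended on how the libraries were scaled. The TMM factors, which edgeR derives from the bulk of genes, lay between 1.11 and 1.24 in 27-week libraries 1 to 5 and between 0.777 and 0.983 in libraries 6 to 10, against 0.889 to 1.16 at 9 weeks. After TMM scaling 149 of the 150 genes were lower in libraries 1 to 5 than in 6 to 10, with a median log2 difference of -0.47, where the own totals gave 83 lower and a median of -0.04. The median over all 16653 genes tested was -0.01 with TMM and 0.42 with own totals. Of the 3188 genes of at least 20 CPM, 2239 were lower in libraries 1 to 5 with TMM and 1377 with own totals. A factor multiplies all genes of a library alike, so differences between sets of genes hardly change with the scaling. Relative to the 3188 genes, the 150 accordingly lay 0.14 lower under both scalings. The rule took the 150 for low spread with own totals over these same libraries. Their place near 0 on that scale is therefore partly set by the choice, and with it the offset and the shift under TMM. These values describe the list. The gap between the most and the least abundant class was likewise nearly the same, -0.46 with own totals and -0.45 with TMM.

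**Figure D5:**
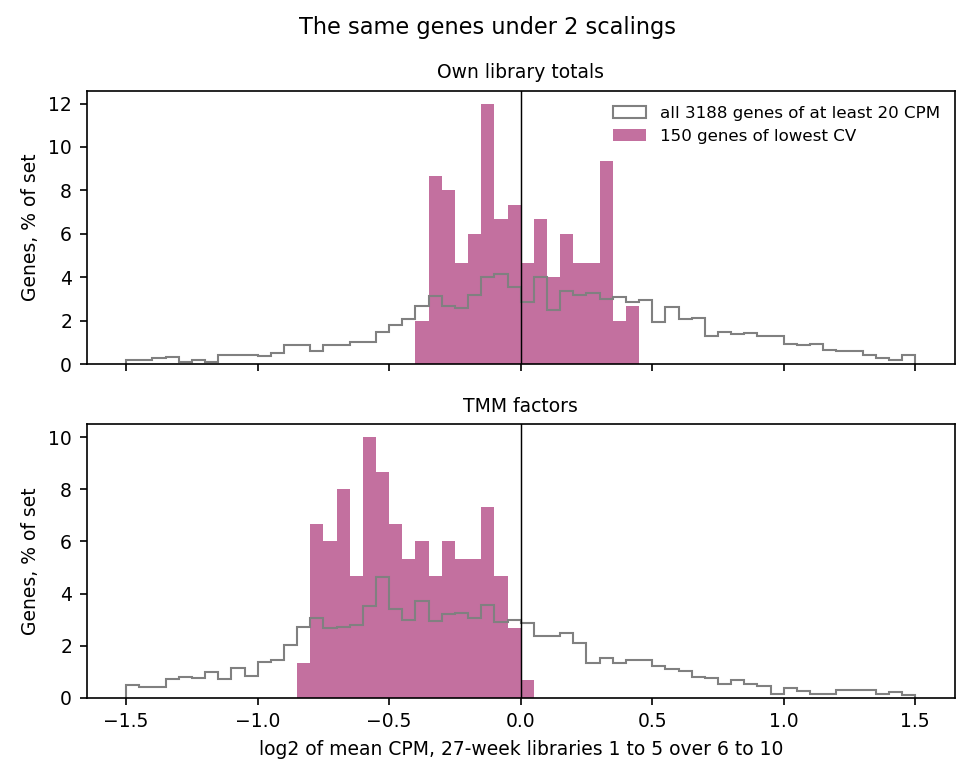
Distribution of the log2 ratio of mean CPM in 27-week libraries 1 to 5 over 6 to 10 (x axis), as percent of each set of genes (y axis), with own totals above and TMM factors below. Genes outside the plotted range are not drawn. The filled bars of the 150 genes straddle 0 with own totals (median -0.04), the scale on which they were chosen for low CV. They lie almost wholly below 0 with TMM (median -0.47).

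The calls of the 150 genes followed the same division. With TMM scaling and without 27-week libraries 1 to 5, 39 were called higher at 27 than at 9 weeks with exercise and 0 lower, and without libraries 6 to 10, 87 were called lower and 0 higher. Of all genes tested these fits called 23.4% and 50.5%, near the shares among the 150, so the counts do not set the 150 apart. Against unexercised fish of 9 weeks the counts were 31 higher and 94 lower, beside 26.4% and 56.1% of all genes. With own totals the counts for age under exercise were 20 higher and 5 lower without libraries 1 to 5, and 6 higher and 9 lower without libraries 6 to 10, beside 25% and 51.4% of all genes. The counts of 4 and 2 from all libraries thus stand between sets of libraries that gave opposite directions under TMM.

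Choosing the genes on TMM-scaled CPM gave another list. Of its 150 genes 39 were among those of the rule, which is 26% of each list. The TMM list had a median of 31.97 CPM and a median length of 5047 bases, held 120 genes under 50 CPM and 0 of at least 500 CPM, and took up 0.693% of all counts. Under their own scaling its genes had a median CV of 10.9%, and the genes of the rule had 16.4% under TMM. Under own totals the TMM list had a median CV of 16.1%, and all its 150 genes were higher in 27-week libraries 1 to 5 than in 6 to 10, by a median of 0.45 on the log2 scale. Each list thus had a higher CV under the scaling that had not chosen it. The choice itself favours this, since each list was taken for low CV under its own scaling on these same libraries. The single direction of the TMM list under own totals is likewise tied to its choice, since with TMM its median difference was 0.01.

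Libraries that took no part in the choice gave a measure that the rule did not use, computed here with own totals only. When each library was left out in turn, the 150 genes chosen on the other 19 deviated in it from their mean by a median absolute log2 value of 0.154 ± 0.044 (SD, n = 20 libraries; range 0.0880 to 0.226), against 0.338 ± 0.074 for all genes over the minimum. The deviation of the chosen genes was smaller in each of the 20 libraries. Within 0.2 log2 units lay 63.7% ± 13.3 of the chosen genes (SD, n = 20; range 40.7% to 83.3%) and 32.2% ± 7.36 of all genes. The lowest share was that of 27-week library 7 and the highest those of unexercised library 1 and 27-week library 4. In 27-week library 6 the chosen genes differed little from all genes. Their median absolute deviation there was 0.225 against 0.262, and 44% against 40.1% lay within 0.2. The lists so chosen shared between 84.7% and 96% of their genes with the 150. Since libraries were left out singly, the others of the same group stayed in the choice. Libraries of both 27-week sets thus took part in every choice, so these values do not test constancy across that division or under another scaling.

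Genes chosen for a low CV in one set of libraries tend to have a higher CV in another by the choice itself. The CV also depends on which libraries are pooled, so the values below are read against those of all genes. The 150 genes of lowest CV over the 9-week libraries (median 8.26%) had a median CV of 17.1% over the 27-week libraries, where all genes had 22.7%. With the 27-week group reduced to libraries 6 to 10 this median was 12.3% against 17.7% for all genes. With libraries 1 to 5 it was 9.86% against 12.9%. Of the genes chosen at 9 weeks, 18 differed by more than 0.5 log2 units between the ages, which is 12% against 44.7% of all genes. The 150 chosen on the 27-week libraries (median 10.1%) had 14.1% over the 9-week libraries against 19.2%, and 40 (26.7%) differed by more than 0.5 log2 units against 42.5%. They lay higher at 9 weeks by a median of 0.27 log2 units. The 3188 genes had medians of -0.11 and -0.19 at 27 weeks against exercised and unexercised fish of 9 weeks, so the direction was not particular to this list. For the list chosen at 27 weeks, the median absolute difference between the ages was 0.35 against 0.41 for all genes, so it was only slightly smaller. For the list chosen at 9 weeks it was 0.19 against 0.44. The lists of the 2 ages shared 23 genes, 15.3% of each, and 15 of the 23 belonged to the 150 of the whole series.

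The list chosen on the 27-week libraries used no library of the exercise comparison at 9 weeks. The edgeR fit on all libraries, however, takes its estimate of the spread partly from the libraries that chose it. With only the 2 groups of 9 weeks fitted, 1 of the 150 genes was called, beside 1.12% of all genes tested. In the fit on all libraries 0 of these 150 genes were called, the smallest adjusted p being 0.124, and 22 (14.7%) had an unadjusted p under 0.05, against 17.6% of all genes over the minimum. DESeq2 called 4 of them and 116 of the 3055 genes over the minimum. With the choice and the fit made without 27-week libraries 1 to 5, edgeR called 2 of the list, beside 2.04% of all genes tested, and without libraries 6 to 10 it called 9, beside 3.17%. Their log2 fold changes had a median of -0.02 and ran from -0.59 to 0.79. With so few genes called in this comparison (0.18% of all tested), a count of 0 does not set the list apart. Chosen on the 15 exercised libraries, where their median CV was 12.3%, 150 genes had a median CV of 9.57% in the 5 unexercised ones. All genes had 16.3% there, and 109 of the chosen genes belonged to the 150 of the rule.

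Within single groups the 150 genes of the rule had a median CV of 8.56% in unexercised and 9.96% in exercised fish of 9 weeks and 13.1% at 27 weeks, where all 3188 genes had 16.4%, 17.6% and 23.3%. Within 27-week libraries 1 to 5 and 6 to 10 alone the medians fell to 8.97% and 10.2%. Differences between the 3 groups made up a median of 15.8% of the variance of the 150 genes and 39.6% of that of all 3188. The rule took genes of low spread over all these libraries, which disfavours genes that differ between groups. The contrasts of this paragraph therefore describe the list and are no support for its constancy.

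Combining genes lowered the spread, as a geometric mean of CPM used as an index shows. The index of the 3 genes of lowest CV had a CV of 3.18% over the 20 libraries, that of 5 genes 3.03%, that of 10 genes 3.11% and that of all 150 genes 4.10%, against 5.35% for the first gene alone. The 5-gene index stood at 100.7% ± 2.37 (SD, n = 5) of its overall mean in unexercised 9-week fish, at 97.5% ± 3.68 (SD, n = 5) in their exercised counterparts and at 100.9% ± 2.48 (SD, n = 10) in 27-week fish. Over 27-week libraries 1 to 5 it stood at 99.7% ± 2.86 (SD, n = 5) and over libraries 6 to 10 at 102.1% ± 1.42 (SD, n = 5). These values come from the libraries that chose the genes. An index of 1, 3, 5, 10 or 150 genes chosen on the 9-week libraries and read at 27 weeks had CVs of 12.9%, 7.49%, 7.17%, 5.99% and 7.48%. Read in 27-week libraries 1 to 5 alone, the same sizes gave 12.0%, 6.45%, 4.90%, 1.74% and 3.08%, and in libraries 6 to 10 alone 14.0%, 6.88%, 7.45%, 6.47% and 7.59%. Chosen at 27 weeks and read at 9 weeks, the CVs were 12.8%, 5.60%, 6.18%, 5.47% and 5.60%. In libraries outside the choice, 10 genes gave the lowest spread of the sizes computed, and in each case a single gene gave the highest. These CVs used own totals and were read within a single age, so they leave out any shift between the ages. The single gene chosen at 27 weeks was Nfu_g_1_015717. It stood at 29.0 and 29.5 CPM in unexercised and exercised fish of 9 weeks and at 24.3 CPM at 27 weeks.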

How the data were processed

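The authors deposited raw counts per gene and RPKM values for 20 libraries, which the labels' protocols trace to a TruSeq kit. The tools were featureCounts 1.4.6-p4, bcl2fastq 1.8.4 and STAR 2.4.1d, per the submitters' processing notes. Genome build and annotation were not given in the sources used here, nor was strand use. The deposited RPKM values served only for gene lengths: a length fitted the counts of all 150 genes when the library totals were assigned cyclically along the table's rows, and of 0 genes with each library's own total.

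CPM used the sums of the deposited counts. Counts were fitted in R 4.3.3 with edgeR 4.0.16 (filterByExpr with a minimum count of 10, TMM, robust quasi-likelihood fit of 3 groups, two-sided contrasts, common dispersion 0.118, 16653 genes tested) with Benjamini-Hochberg adjustment and a threshold of 0.05. DESeq2 1.42.0 was an alternative. Others were size factors, own totals, scaling by the 150 genes, no filter, fits of 2 groups, other minima and spread measures, and libraries left out. The choice of genes and the fit were checked on simulated data. Named genes are the 3 of lowest CV, the most abundant, the edge of the threshold and the 2 largest differences with age in each direction; 2 called genes were added after their values were seen. The 150 genes and all lists were chosen with earlier results of these data known. Libraries of a group differed by a chi-square of at least 23.7 per degree of freedom, so none was counted as a duplicate.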

Additional observations from a re-analysis of the deposited data

Results flagged for a closer look

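Among the 45 sets of values examined (the named genes and list measures, by group), 2 held a library far from the others of its group, and chance marks about 1 in 20 such sets. Nfu_g_1_003723, the gene of lowest CV, lay at 37171 CPM in exercised 9-week library 4, where the other 4 libraries of the group lay between 32900.5 and 33724 CPM. Nfu_g_1_005860 lay at 28.9 CPM in unexercised library 4, where the other 4 lay between 21.0 and 22.8 CPM. Unexercised library 4 was also the lowest of all libraries for the most abundant gene, at 83308 CPM, and had the highest TMM factor of the 9-week libraries, 1.16.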

How the results depend on the processing

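For 27 against 9 weeks with exercise, the 4 genes called became 14 with scaling by the 150 genes, 11 with own totals, 12 with DESeq2, 0 without a filter and 0 with only these 2 groups, where these fits called 29.9%, 28.3%, 35.1%, 21.9% and 28.8% of all genes tested. Without 27-week libraries 1 to 5 or 6 to 10 the count was 39 or 87 with TMM (all genes 23.4% or 50.5%) and 25 or 15 with own totals (25% or 51.4%), and leaving out single libraries gave 0 to 6. For 27 weeks against unexercised fish the 2 genes became 5, 4, 9, 0 and 1 under the same 5 settings (all genes 38.2%, 36.3%, 42.7%, 28.5% and 39%), 31 or 94 (26.4% or 56.1%) and 8 or 20 (27.2% or 56.1%) without those libraries, and 0 to 6 with single libraries left out. For exercise at 9 weeks DESeq2 gave 1 (all genes 2.14%), and every other setting run gave 0. In the choice of genes, TMM kept 39 of the 150 (median CV of the new list 10.92%), size factors 43 (11.07%), a minimum of 50 CPM 87 (13.53%), leaving out 27-week libraries 1 to 5 83 (11.27%) and leaving out 6 to 10 94 (10.21%), and single libraries left out kept 84.7% to 96% at 12.06% to 12.68%. For genes chosen at 27 weeks, the exercise count of 0 became 1 with only 2 groups, 2 or 9 without libraries 1 to 5 or 6 to 10, and 0 to 1 with single libraries left out. For genes chosen at 9 weeks, the median CV of 17.13% at 27 weeks (all genes 22.7%) became 14.87% with a minimum of 50 CPM (all genes 21.2%). It became 12.3% or 9.858% without libraries 1 to 5 or 6 to 10 (all genes 17.7% or 12.9%), and 15.84% to 17.73% with single libraries left out. The causes were not tested. The alternatives that combine own totals with libraries left out, and the libraries left out for the lists of 1 age, were chosen after seeing the data. No paired analysis was possible because the labels give no replicate numbers.

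The lack of gene names and the unexplained division of the 27-week libraries limit these results. No outside standard such as a spike-in was used here, so constancy is relative to the other transcripts of a library and not to the amount of tissue. Lengths are those of the authors' gene models. At 20 CPM or more, counting error stayed at or below 3.99% of the mean for the 150 genes.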
